A study of Homo sapiens with 12 samples.

Results

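KYAT3, RBMXL1, ASXL1, TRIM37, LYRM2, MIS12 and KDELR3 are 7 of the 60583 genes in the count tables, chosen by symbol because they are often used as genes next to well-cut sites of the restriction nuclease AsiSI in U2OS-AsiSI cells. U2OS is a human osteosarcoma line. U2OS-AsiSI is the same line carrying AsiSI-ER, the nuclease fused to the hormone-binding part of the oestrogen receptor, which 4-hydroxytamoxifen (OHT) sends into the nucleus. The assay was TT-seq, a measure of nascent RNA: 4-thiouridine given briefly enters new transcripts, which are then fragmented, pulled down and sequenced. The 12 libraries formed 4 groups of 3 replicates: U2OS transfected with siCtrl, U2OS transfected with siINTS11, U2OS-AsiSI transfected with siCtrl and U2OS-AsiSI transfected with siINTS11, all taken 48 hours after transfection. The labels give OHT for 1 hour for both U2OS-AsiSI groups and list no treatment for either U2OS group, so line, nuclease and OHT differ together between the lines and cannot be told apart. No source used here says whether U2OS-AsiSI is a single clone, or whether replicates came from separate cultures, so p-values measure the spread between these libraries.

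AsiSI cuts DNA at GCGATCGC, a motif that reads the same on both strands and is blocked by CpG methylation, which leaves sites in unmethylated promoters as the usual places of cutting. A double-strand break next to an active promoter is known to reduce transcription of that gene in cis, through the kinase ATM, ubiquitin marks on histone H2A and chromatin remodellers. INTS11 is the endonuclease of Integrator, a complex that binds RNA polymerase II near promoters and cuts nascent RNA.

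The motif was looked for in RefSeq promoter windows (300 bases per transcript start, GRCh38) and in GENCODE 29 transcripts, because its position decides whether a break would fall at the start of the gene. In all, 5 sites were found beside 6 of the 7 genes and are shown 5′ to 3′ on the strand of the gene, 30 bases each, with the AsiSI motif in capitals.
KYAT3 and RBMXL1: ccatccattccGCGATCGCggcggacccca
ASXL1: cgcattccttaGCGATCGCggggcagccgc
TRIM37: gcgggaactagGCGATCGCtccacgctcct
LYRM2: cttggtttggtGCGATCGCgtgagacagcg
KDELR3: ggcgcgcgggtGCGATCGCggagctgtgag

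The shared site of KYAT3 and RBMXL1 (GRCh38 chr1:88992913-88992920) lay in an untranslated first part of both genes, 33 bases inside the KYAT3 start and 40 inside the RBMXL1 start as the tables give them. The ASXL1 site (chr20:32358509-32358516) lay 179 bases inside that gene and the KDELR3 site (chr22:38468096-38468103) 18 bases inside, each in an untranslated exon. The LYRM2 site (chr6:89638467-89638474) lay in an exon, 275 bases inside the annotated start. The TRIM37 site (chr17:59106935-59106942) began 21 bases upstream of the gene and fell in an exon of AC099850.1. The letters searched were promoter windows and transcripts, and only sites close to the start of the gene were kept. Sites far from the start, and most sites in introns, could therefore not appear. Each of the 5 sites shown lay within 1 kb of the start of its gene. For MIS12 the motif was not in the letters searched, and no site is shown. The motif occurred in 73 of 35116 promoter windows (0.208%), those of TRIM37, LYRM2 and KDELR3 among them, and cutting itself was not measured here.

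The genes differ in size and in how cleanly their reads can be counted. KYAT3 (ENSG00000137944, chromosome 1, 88935773 to 88992953, minus strand, 57.2 kb) encodes a kynurenine aminotransferase. RBMXL1 (ENSG00000213516, chromosome 1, 88979456 to 88992960, minus strand), an RNA-binding protein gene of the RBMX family, lies almost entirely inside it on the same strand, with 99.9% of its span shared. ASXL1 (ENSG00000171456, chromosome 20, 32358330 to 32439319, plus strand, 81 kb) encodes a Polycomb-linked chromatin protein that works with the deubiquitinase BAP1 on histone H2A. TRIM37 (ENSG00000108395, chromosome 17, 58982638 to 59106921, minus strand, 124 kb) encodes an E3 ubiquitin ligase that limits centrosome assembly. MIS12 (ENSG00000167842, chromosome 17, 5486285 to 5490814, plus strand, 4.53 kb) encodes a kinetochore protein. KDELR3 (ENSG00000100196, chromosome 22, 38468078 to 38483447, plus strand, 15.4 kb) encodes a receptor that returns proteins to the endoplasmic reticulum. LYRM2 (ENSG00000083099, chromosome 6, 89568144 to 89638749, minus strand, 70.6 kb) encodes a small mitochondrial protein of the LYR-motif family. The RefSeq span of LYRM2 is 6.52 kb, 9.24% of the span counted in the tables, so most of the positions counted for it lie outside the RefSeq gene.

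RBMXL1 is listed at 0 reads in all 12 libraries and could not be tested. Of 11019 genes with at least 99% of their span shared on the same strand, 10005 (90.8%) were at 0 in every library, against 26.3% of the other genes. The 0 for RBMXL1 is therefore no measure of its transcription. KYAT3 shares with it the 13498 bases at its start, 23.6% of its span and with the AsiSI site, and the rule by which reads there were counted is not given in the sources used here. The other 6 genes all passed the filter on low counts in both lines, with 3278 (KDELR3) to 111155 (ASXL1) reads over the 12 libraries.

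Library totals ran from 20704611 to 38065726 counts. INTS11, the target of the siRNA, was lower in the libraries labelled siINTS11 than in those labelled siCtrl by a log2 fold change of -0.42 in U2OS (adjusted p = 6.08e-05 in edgeR) and did not pass in U2OS-AsiSI (-0.13, adjusted p = 0.172). Between the lines INTS11 did not pass under siCtrl (0.08, adjusted p = 0.513 in edgeR) and was higher in U2OS-AsiSI under siINTS11, at 9.28 against 7.37 CPM with no overlap (0.37, SE 0.08, adjusted p = 0.000457). Its interaction did not pass (0.25, SE 0.12, adjusted p = 0.235 in edgeR). The part of unequal INTS11 levels in the line comparison under siINTS11 and in the interaction was not tested. Nascent RNA does not measure the mature mRNA on which an siRNA acts. ESR1, whose hormone-binding part the fusion carries, did not pass between the lines (0.05, adjusted p = 0.724 under siCtrl, and 0.15, adjusted p = 0.115 under siINTS11). ESR1 was counted over its whole span, and whether reads of the fusion would be counted there was not tested. Its values therefore cannot show whether the fusion was expressed. Of 8 osteoblast lineage markers 7 had reads in every library and BGLAP was at 0. Their summed level was 542 to 553 CPM in U2OS and 418 to 442 CPM in U2OS-AsiSI under siCtrl, and 315 to 351 and 238 to 265 CPM under siINTS11. RUNX2 made up most of that sum and of its difference, at 438 ± 8.4 and 326 ± 12.8 CPM under siCtrl and 250 ± 18.1 and 155 ± 6.5 CPM under siINTS11 (SD, n = 3). COL1A1 had 105 and 100 CPM and then 77.9 and 83.5 CPM, and ALPL was higher in U2OS-AsiSI in the mean, at 3.08 and 4.64 and then 8.69 and 11.5 CPM. SP7, COL1A2, SPP1 and IBSP had means of at most 0.332 CPM under siCtrl. That is near the leukocyte marker PTPRC, at 0.181 CPM in U2OS and 0.195 CPM in U2OS-AsiSI. The 4 leukocyte markers summed to at most 0.329 CPM. The epithelial markers EPCAM and CDH1 had reads in every library and summed to 10.1 to 14.4 CPM. The endothelial marker PECAM1 had 0.801 to 3.39 CPM and the mesenchymal marker VIM 126 to 180 CPM.

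Under siCtrl, all 6 genes that could be tested had lower levels of nascent RNA, relative to all genes, in U2OS-AsiSI with OHT than in U2OS. The levels of KYAT3, KDELR3 and ASXL1 were lower by 37.8%, 36.4% and 34.3%, those of MIS12 and TRIM37 by 28.9% and 26.1%, and that of LYRM2 by 16.5%. All 6 passed edgeR's quasi-likelihood test with Benjamini-Hochberg adjustment over 19935 genes, where 34.9% of all genes passed, 17.2% lower and 17.8% higher in U2OS-AsiSI. In all 6 the 3 U2OS-AsiSI libraries lay below the 3 U2OS libraries, which held for 21.9% of all genes tested. The median log2 fold change of the 6 was -0.55, beside 0.01 over all genes tested.

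KYAT3 stood at 47.7, 50.5 and 50.7 CPM (counts relative to the library size, with TMM factors) in the U2OS libraries and at 32.1, 29 and 31.4 CPM in those of U2OS-AsiSI. The lowest U2OS library was above the highest U2OS-AsiSI library by far more than the spread within either group. The means were 49.6 ± 1.66 and 30.8 ± 1.65 CPM (SD, n = 3), and the log2 fold change was -0.68 (SE 0.05, adjusted p = 7.59e-12 in edgeR). Of all genes tested, 1.17% had a lower value.

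ASXL1 had the most reads of the 6 genes. Its level was 374, 367 and 396 CPM in U2OS and 260, 247 and 239 CPM in U2OS-AsiSI. The log2 fold change was -0.61 (SE 0.04, adjusted p = 2.16e-12 in edgeR), with 1.86% of genes below it. The groups were as clearly apart as for KYAT3. ASXL1 averaged 0.114 reads per base, the densest of the 6, and with an offset that removes each library's trend on read density its log2 fold change was -0.70.

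KDELR3 was the gene with the fewest reads, 200 to 476 per library under siCtrl. Its level was 11.7, 13.5 and 11.2 CPM in U2OS and 7.67, 8.18 and 7.31 CPM in U2OS-AsiSI. The second U2OS library was the highest, and the other 2 were still above every U2OS-AsiSI library. The log2 fold change was -0.65 (SE 0.09, adjusted p = 7.59e-07 in edgeR), and -0.56 without that library.

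MIS12 stood at 16.2, 15 and 15 CPM in U2OS and at 10.5, 9.93 and 12.4 CPM in U2OS-AsiSI. The third U2OS-AsiSI library was the nearest to the U2OS level and did not reach it. The log2 fold change was -0.49 (SE 0.08, adjusted p = 1.49e-05 in edgeR). TRIM37 stood at 292, 305 and 314 CPM in U2OS and at 234, 221 and 217 CPM in U2OS-AsiSI. Its log2 fold change was -0.44 (SE 0.04, adjusted p = 2.53e-09 in edgeR). For both genes no library of one line reached the range of the other line.

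LYRM2 showed the smallest difference. Its level was 14.6, 14.7 and 13.3 CPM in U2OS and 11.5, 11.5 and 12.6 CPM in U2OS-AsiSI, so that the nearest libraries of the 2 groups were 13.3 and 12.6 CPM. The log2 fold change was -0.26 (SE 0.08, adjusted p = 0.00793 in edgeR), and 13.7% of all genes lay below it. The call was lost with library totals as the only scaling (-0.20, adjusted p = 0.0569) and without U2OS siCtrl replicate 2 (-0.23, adjusted p = 0.0514).

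**Figure D1:**
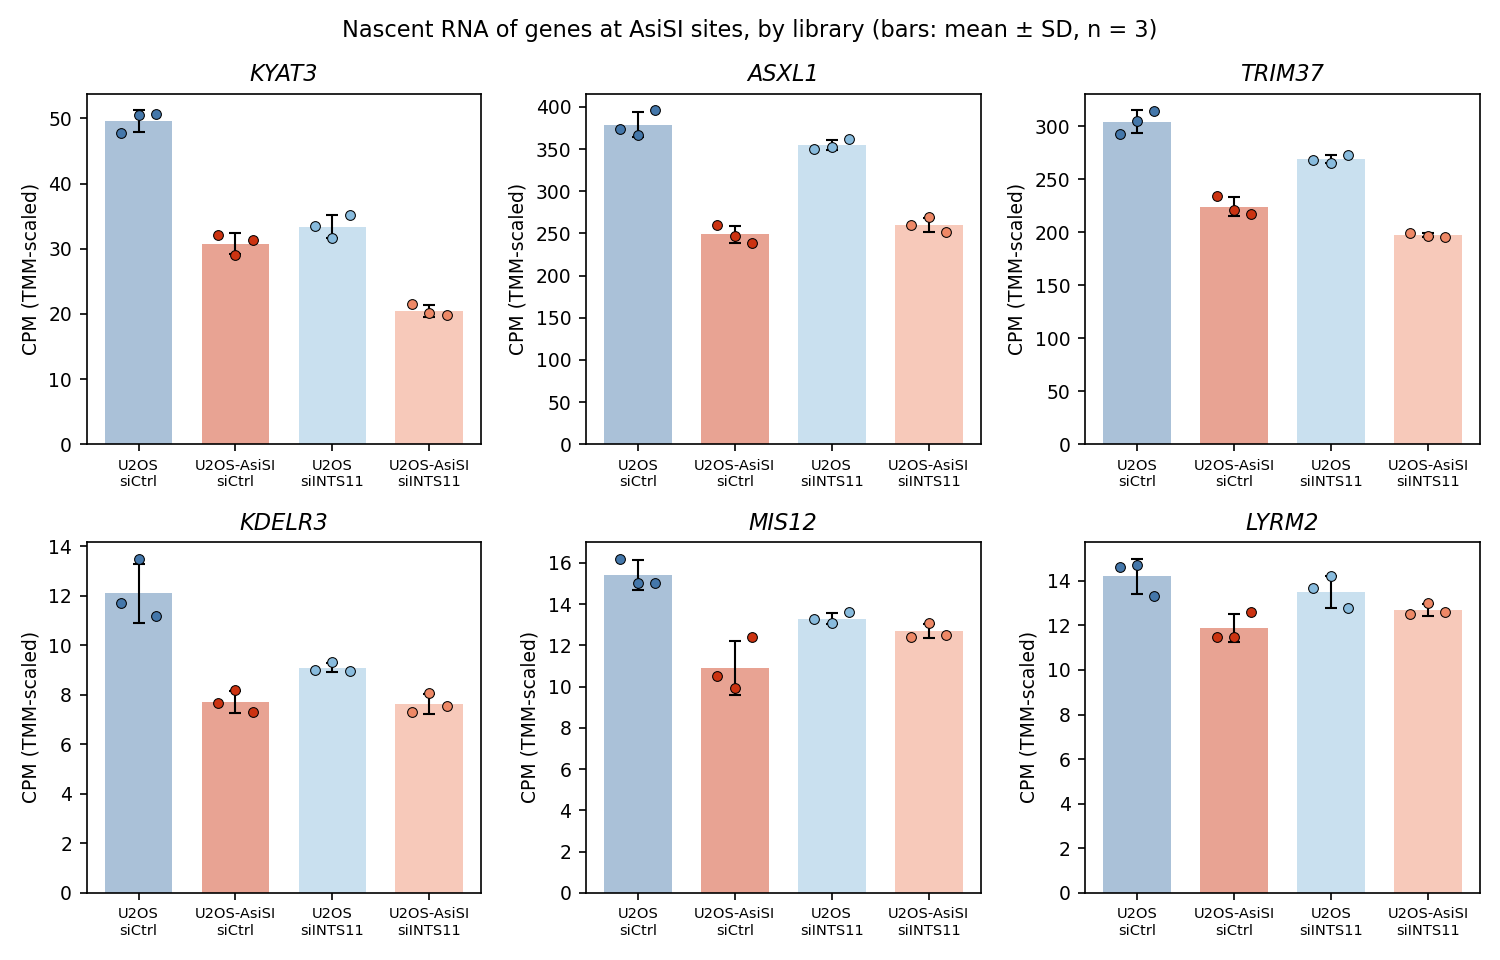
Level of nascent RNA (CPM, TMM-scaled, linear axes from 0) of the 6 genes with reads in each of the 12 libraries, by line and siRNA, where points are libraries, bars are means and error bars are SDs (n = 3). Under siCtrl every U2OS-AsiSI library lies below every U2OS library in all 6 panels, while under siINTS11 the groups overlap for LYRM2 and nearly touch for MIS12.

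The comparison was also run with an offset that removes each library's trend on gene span. All 6 genes passed there as well, with log2 fold changes from -0.77 for KDELR3 to -0.20 for LYRM2. With library totals alone the 6 values ran from -0.63 for KYAT3 to -0.20 for LYRM2. On that scale the median over all genes went from 0.01 to 0.07, and the share of calls that were higher in U2OS-AsiSI went from 50.9% to 67.4%.

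Under siINTS11 the line comparison was repeated in 6 other libraries. KYAT3, ASXL1, TRIM37 and KDELR3 were lower in U2OS-AsiSI again, and MIS12 and LYRM2 did not pass. The count of 4 of 6 stands beside 43.6% of 20802 genes passing in all, 21.4% lower and 22.2% higher. The median of the 6 was -0.32, beside 0.01 over all genes tested.

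KYAT3 stood at 33.5, 31.6 and 35.2 CPM in U2OS and at 21.5, 20.1 and 19.8 CPM in U2OS-AsiSI, a log2 fold change of -0.67 (SE 0.06, adjusted p = 1.37e-12 in edgeR). ASXL1 stood at 350, 352 and 362 CPM in U2OS and at 260, 269 and 252 CPM in U2OS-AsiSI. TRIM37 stood at 268, 265 and 273 CPM in U2OS and at 199, 196 and 195 CPM in U2OS-AsiSI. The libraries of the lines were far apart for all 3 genes, and ASXL1 and TRIM37 each differed by -0.41 on the log2 scale (SE 0.04, with adjusted p of 1.7e-10 and 7.68e-11 in edgeR).

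KDELR3 stood at 9, 9.32 and 8.97 CPM in U2OS and at 7.3, 8.06 and 7.53 CPM in U2OS-AsiSI. Its groups did not overlap, as for 29.9% of all genes tested in that direction, and the log2 fold change was -0.22 (SE 0.08, adjusted p = 0.0294 in edgeR). That call was lost in 8 of 15 alternatives, among them DESeq2 (adjusted p = 0.0881), library totals alone (adjusted p = 0.117), and the fits without U2OS-AsiSI siINTS11 replicate 1 (adjusted p = 0.106) or 3 (0.0892) or without U2OS siINTS11 replicate 1 (0.0532), 2 (0.0818) or 3 (0.0505). MIS12 stood at 13.3, 13.1 and 13.6 CPM in U2OS and at 12.4, 13.1 and 12.5 CPM in U2OS-AsiSI, a log2 fold change of -0.04 (SE 0.07, adjusted p = 0.665 in edgeR). The nearest libraries of its 2 groups were equal to 3 digits. With the span offset the MIS12 value was -0.25 (adjusted p = 0.00298). LYRM2 stood at 13.7, 14.2 and 12.8 CPM in U2OS and at 12.5, 13 and 12.6 CPM in U2OS-AsiSI, with overlapping groups and a log2 fold change of -0.06 (SE 0.07, adjusted p = 0.536 in edgeR).

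**Figure D2:**
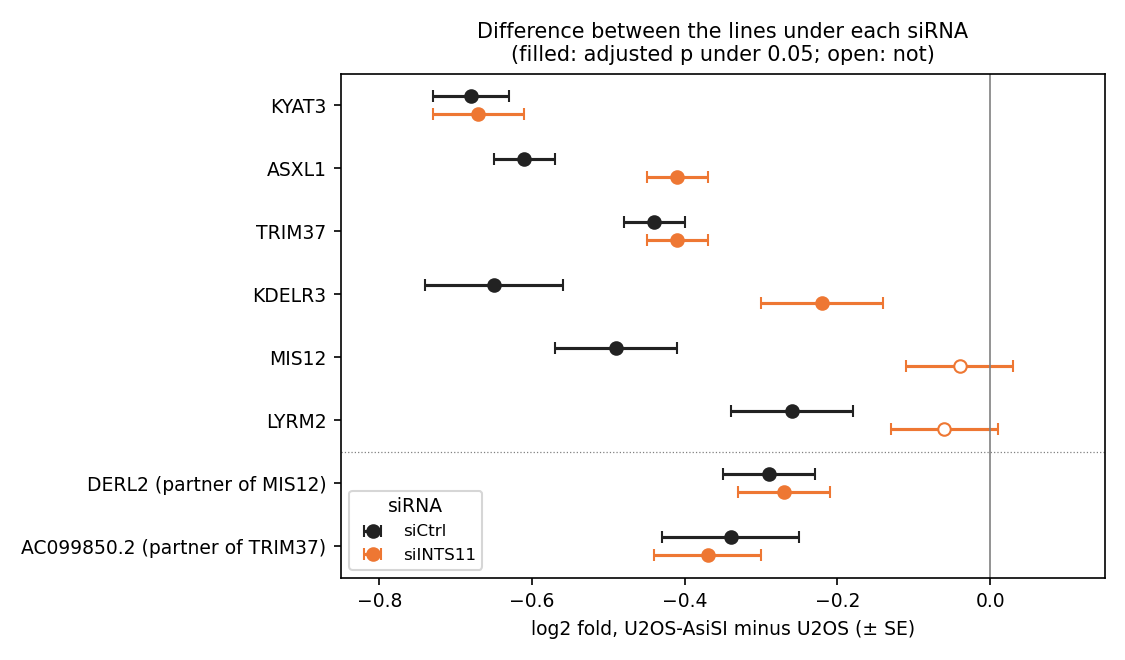
Log2 fold change between the lines (U2OS-AsiSI minus U2OS, points with SE bars) under siCtrl and siINTS11 for the 6 genes and for 2 genes that start next to them on the opposite strand, where filled points passed an edgeR adjusted p of 0.05. KYAT3 and TRIM37 have nearly equal values under both siRNAs, while the points of ASXL1, KDELR3, MIS12 and LYRM2 under siINTS11 lie nearer to 0, and the open points of MIS12 and LYRM2 did not pass.

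Whether the line difference itself changed with siINTS11 was tested as an interaction over all 12 libraries, where 3.87% of 21521 genes passed, 0.762% with a higher and 3.1% with a lower line difference under siINTS11. That split moved with the scaling, from 164 higher and 668 lower (median over all genes -0.05) to 177 and 270 with median-of-ratios factors, 174 and 415 with library totals alone, 197 and 266 with the density offset and 385 and 374 with the span offset (medians -0.02 to -0.01). MIS12 was the only one of the 6 genes to pass. Its interaction was 0.42 on the log2 scale (SE 0.11, adjusted p = 0.0223 in edgeR), which corresponds to siINTS11 values of 13.3 ± 0.263 CPM in U2OS and 12.7 ± 0.354 CPM in U2OS-AsiSI beside siCtrl values of 15.4 ± 0.716 and 10.9 ± 1.32 CPM (SD, n = 3). The call held in 16 of 20 alternatives. It was lost without U2OS-AsiSI siCtrl replicate 1 (0.39, adjusted p = 0.0609) or 2 (0.36, adjusted p = 0.0785), without U2OS-AsiSI siINTS11 replicate 2 (0.41, adjusted p = 0.0548) and without U2OS siCtrl replicate 1 (0.38, adjusted p = 0.0611).

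For KDELR3 the interaction was of like size, 0.40 (SE 0.12), and missed the threshold (adjusted p = 0.0534 in edgeR), which it passed in 7 of 20 alternatives. ASXL1 had 0.16 (SE 0.06, adjusted p = 0.125) and LYRM2 0.17 (SE 0.10, adjusted p = 0.376). Of 20 alternatives, ASXL1 passed in 3 and LYRM2 in 0. KYAT3 and TRIM37 had -0.02 (SE 0.08, adjusted p = 0.929) and -0.01 (SE 0.06, adjusted p = 0.942), values whose sign turned under most other scalings. So in the main fit a change of the line difference passed for MIS12 alone, and its split from KDELR3 rests on the threshold.

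The siRNA effect within each line was tested on the same libraries, so these values are not independent of those above. In U2OS, 5 of the 6 genes were lower under siINTS11 than under siCtrl, where 66.9% of 20687 genes passed, 32.4% lower and 34.5% higher. KYAT3 fell by 34% (log2 fold change -0.60, SE 0.05, adjusted p = 2.86e-14 in edgeR) and KDELR3 by 26.8% (-0.45, SE 0.08, adjusted p = 5.6e-06). MIS12 fell by 14.8%, TRIM37 by 13.2% and ASXL1 by 8.32% (edgeR adjusted p = 0.00365, 2.42e-05 and 0.00732). LYRM2 did not pass (-0.10, adjusted p = 0.214). In all 5 called genes the siINTS11 libraries lay below the siCtrl libraries, as for 31.2% of all genes tested.

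In U2OS-AsiSI with OHT, 68% of 20441 genes passed, 32.6% lower and 35.4% higher, and 3 of the 6 genes were among them. In 34.7% of all genes tested the siINTS11 libraries lay below the siCtrl libraries, as they did for KYAT3 and TRIM37. KYAT3 fell by 33.3% (log2 fold change -0.58, SE 0.06, adjusted p = 6.22e-10 in edgeR) and TRIM37 by 11.8% (-0.18, SE 0.04, adjusted p = 0.000689). MIS12 was higher under siINTS11, by 0.22 (SE 0.08, adjusted p = 0.0188 in edgeR), with all 3 siINTS11 libraries (12.4, 13.1 and 12.5 CPM) at or above the highest siCtrl library. ASXL1, LYRM2 and KDELR3 had 0.07, 0.10 and -0.02 and did not pass. KYAT3 therefore fell in both lines, and MIS12 fell in U2OS and rose in U2OS-AsiSI, the contrast that the interaction tests.

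These siRNA effects depended on the scaling and, for MIS12 and ASXL1, on single libraries. With library totals alone the median over all genes went from 0.03 to 0.22 in U2OS-AsiSI and from 0.02 to 0.22 in U2OS. On that scale the TRIM37 value in U2OS-AsiSI was 0.01, and in U2OS the calls of TRIM37 (adjusted p = 0.907) and MIS12 (-0.03, adjusted p = 0.712) were lost while ASXL1 was higher under siINTS11 (0.07, adjusted p = 0.0263). With the span offset the MIS12 value in U2OS-AsiSI was -0.06 (adjusted p = 0.534 in edgeR), and in U2OS TRIM37 and ASXL1 did not pass (adjusted p = 0.205 and 0.617). The rise of MIS12 in U2OS-AsiSI was lost with DESeq2 (adjusted p = 0.0877) and without siCtrl replicate 2 (0.15, adjusted p = 0.14) or siINTS11 replicate 2 (0.20, adjusted p = 0.0522). The fall of ASXL1 in U2OS was lost without siCtrl replicate 3 (-0.08, adjusted p = 0.0571). The KYAT3 fall passed in all 15 alternatives in each line.

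Per kilobase of counted span, the level in U2OS under siCtrl was highest for ASXL1 at 4.68 ± 0.189 CPM per kb (SD, n = 3). MIS12 followed at 3.4 ± 0.158 and TRIM37 at 2.44 ± 0.0874, each apart from the next by more than the spread. KYAT3 at 0.868 ± 0.029 and KDELR3 at 0.789 ± 0.0773 did not differ beyond their spread over the whole span. Set over only the 43.7 kb that KYAT3 does not share with RBMXL1, its counts gave 1.14 ± 0.038 CPM per kb. LYRM2 was the lowest at 0.201 ± 0.0112, over a span in the tables that is mostly outside its RefSeq gene. Lower levels in U2OS-AsiSI were thus seen in densely and in thinly transcribed genes of the set.

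MIS12 and TRIM37 each have a gene that starts within 1 kb of their own start on the opposite strand. DERL2, which encodes a protein of endoplasmic reticulum-associated degradation, starts 526 bases inside MIS12. DERL2 stood at 25.8, 28.8 and 29.2 CPM in U2OS and at 24, 22.8 and 21.4 CPM in U2OS-AsiSI under siCtrl, a log2 fold change of -0.29 (SE 0.06, adjusted p = 0.000361 in edgeR). Under siINTS11 it stood at 26.3, 25.1 and 26.3 CPM against 22.1, 19.6 and 21.1 CPM, a value of -0.27 (SE 0.06, adjusted p = 0.000223 in edgeR). DERL2 was therefore lower in U2OS-AsiSI under both siRNAs, whereas MIS12 was called under siCtrl.

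AC099850.2 starts 323 bases inside TRIM37. Under siCtrl it stood at 9.25, 9.19 and 10 CPM in U2OS and at 7.13, 6.99 and 8.41 CPM in U2OS-AsiSI, a log2 fold change of -0.34 (SE 0.09, adjusted p = 0.00403 in edgeR). Under siINTS11 the levels were 13.1, 13.3 and 12.8 CPM against 10, 9.86 and 9.62 CPM, a value of -0.37 (SE 0.07, adjusted p = 5.93e-05 in edgeR). Its groups did not overlap in either comparison. The strand setting of the counting is not given in the sources used here, so reads of these overlapping pairs cannot be told apart with certainty. The same limit holds for KDELR3 with DDX17, LYRM2 with ANKRD6, and TRIM37 with PPM1E and RN7SL716P, which also overlap on opposite strands. Under siCtrl DDX17 had 122 CPM in U2OS-AsiSI and 127 CPM in U2OS and did not pass (-0.05). ANKRD6 and PPM1E were called lower in U2OS-AsiSI (-0.27 and -0.59). Whether reads of these genes bear on the values of KDELR3, LYRM2 and TRIM37 was not tested.

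Genes farther away went both ways. Of 22 genes that start within 50 kb of the 7 genes, 10 could be tested under siCtrl, and 4 were lower (40%) and 3 higher (30%) in U2OS-AsiSI (median -0.16), beside 17.2% and 17.8% of all genes tested. DERL2 and AC099850.2 were the nearest of those that were lower, and PRR11 and SKA2, 48.6 and 48.3 kb from TRIM37, were lower by less (-0.25, SE 0.04, edgeR adjusted p = 2.63e-05 and -0.17, SE 0.04, adjusted p = 0.00208). C1QBP, 37.5 kb from MIS12 and known for a mitochondrial protein, was higher by 0.45 (SE 0.06, adjusted p = 3.78e-07 in edgeR), and DHX33, an RNA helicase gene 17.3 kb from MIS12, by 0.25 (SE 0.05, adjusted p = 0.000482). GBP3, an interferon-inducible GTPase gene 29.9 kb from RBMXL1, was higher by 0.44 (SE 0.09, adjusted p = 0.0003 in edgeR). Under siINTS11 the same window held 4 lower (40%) and 2 higher (20%) genes of 10 tested, beside 21.4% and 22.2% of all genes. Of the 167 genes tested that start 50 kb to 1 Mb away, 20.4% were lower and 12.6% higher under siCtrl (median -0.01), beside 17.2% and 17.8% of all genes. Of the 44 tested within 250 kb, 31.8% were lower and 11.4% higher. Under siINTS11, 17.6% were lower and 23.6% higher of 182 genes tested 50 kb to 1 Mb away.

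Against its own surroundings, KYAT3 lay below all 11 tested genes that start within 1 Mb under siCtrl (neighbour median 0.04). ASXL1 lay below all 30 (median -0.02) and KDELR3 below all 51 (median -0.05). Among the 42 neighbours of MIS12 (median 0.13), 1 had a lower value, and among the 30 of TRIM37 (median -0.13) 2 did. LYRM2 stood apart least, with 4 of 13 neighbours lower (median -0.13). Under siINTS11 the numbers of lower neighbours were 1 of 12 for KYAT3, 3 of 34 for ASXL1, 3 of 33 for TRIM37, 6 of 54 for KDELR3, 11 of 45 for MIS12 and 9 of 14 for LYRM2. The named gene thus had the lowest value of its neighbourhood in 3 of 6 cases under siCtrl, while under siINTS11 each had at least 1 lower neighbour. How often any tested gene is the lowest within 1 Mb was not worked out, so the count has no share to stand beside. The copy number of these regions in the lines was not measured here.

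**Figure D3:**
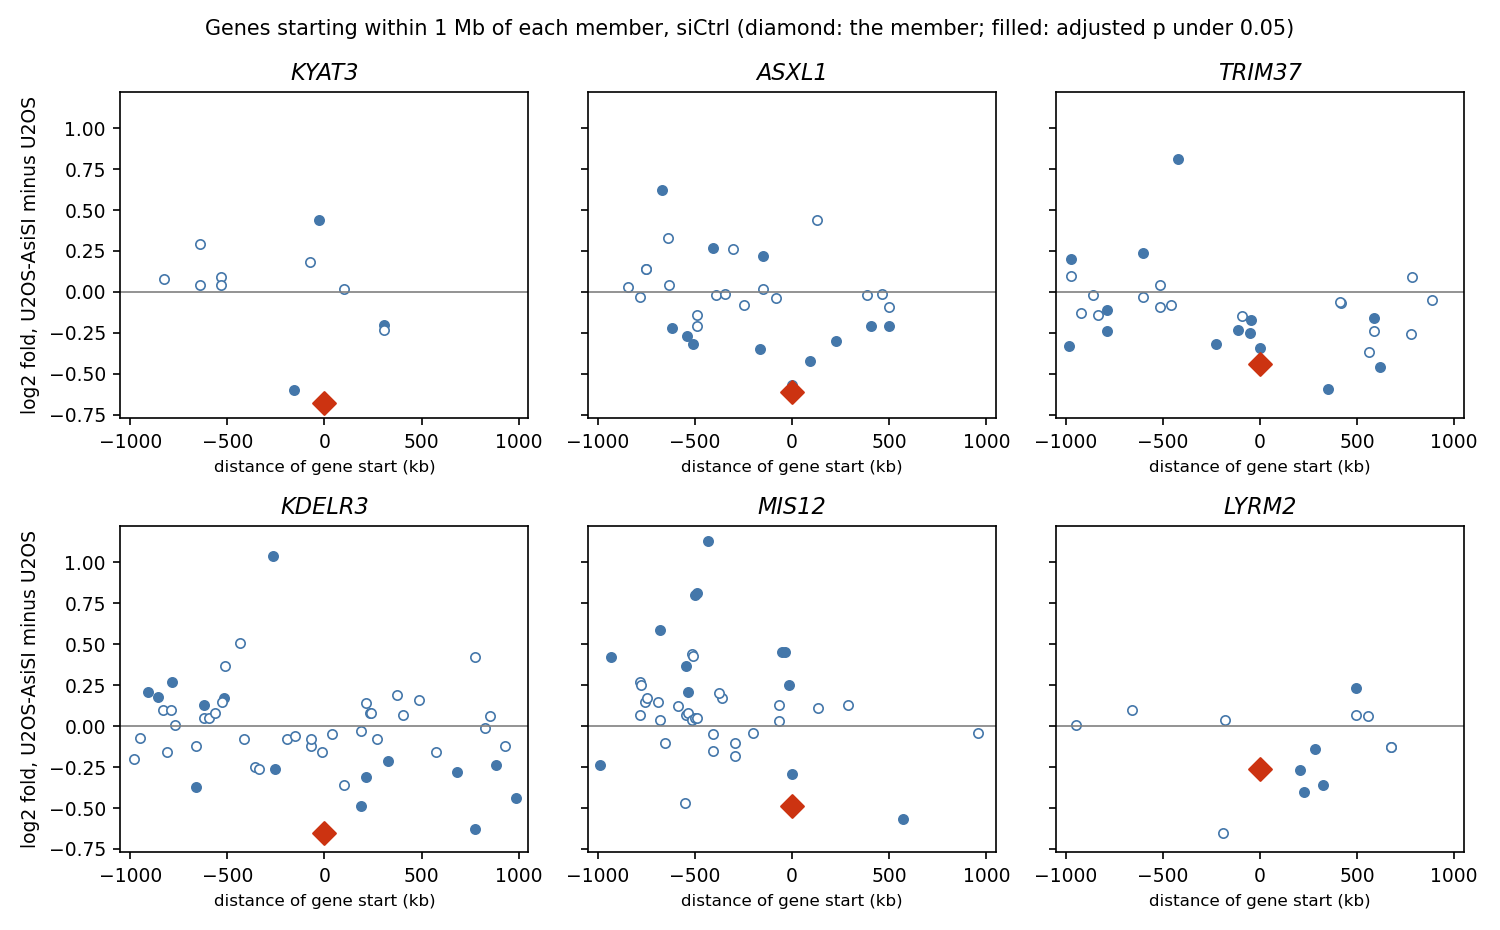
Log2 fold change between the lines under siCtrl (U2OS-AsiSI minus U2OS) of every tested gene that starts within 1 Mb, plotted against the distance of its start from the start of the named gene in kb along that gene's strand, where diamonds are the named genes and filled circles passed an edgeR adjusted p of 0.05. The diamonds of KYAT3, ASXL1 and KDELR3 are the lowest points of their panels, and 4 circles lie below that of LYRM2.

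The same motif occurs in the promoter window of 61 genes in the tables, TRIM37, LYRM2 and KDELR3 included. Under siCtrl 52 of them were tested, of which 21 (40.4%) were lower and 5 (9.62%) higher in U2OS-AsiSI, with a median of -0.13. Without the 3 named genes it was 18 of 49 lower (36.7%) and 5 higher (10.2%), beside 17.2% and 17.8% of all genes tested. Under siINTS11, again without the 3, 21 of 48 (43.8%) were lower and 7 (14.6%) higher, beside 21.4% and 22.2%. Genes called lower were thus more frequent in this list than among all genes, as a description with no test of the list. The same held for siINTS11 against siCtrl within each line, again without the 3. In U2OS 22 of 48 (45.8%) were lower and 12 (25%) higher, beside 32.4% and 34.5% of all genes. In U2OS-AsiSI 21 of 48 (43.8%) were lower and 14 (29.2%) higher, beside 32.6% and 35.4%. Between the lines under siCtrl, TRIM37 had the smallest adjusted p among the lower genes. Next came C1orf198 (-0.59, SE 0.06, adjusted p = 7.09e-09 in edgeR) and SLCO3A1, an organic anion transporter gene (-0.37, SE 0.04, adjusted p = 4.73e-08). LAMB1, a laminin subunit gene, was higher by 0.29 (SE 0.04, adjusted p = 2.44e-06 in edgeR), as were ZNF202 (0.29, SE 0.05) and RNF166 (0.44, SE 0.10). Under siINTS11, NFIB, a transcription factor gene, was lower by 0.43 on the log2 scale (log2 fold change -0.43, SE 0.04, adjusted p = 5.71e-11 in edgeR), C1orf198 had -0.51 (SE 0.05), and LAMB1, RNF166 and PHLDA1 were higher by 0.39, 0.45 and 0.33. Between the lines, genes with a motif in the promoter window were thus lower, higher or uncalled, with more called lower than higher.

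**Figure D4:**
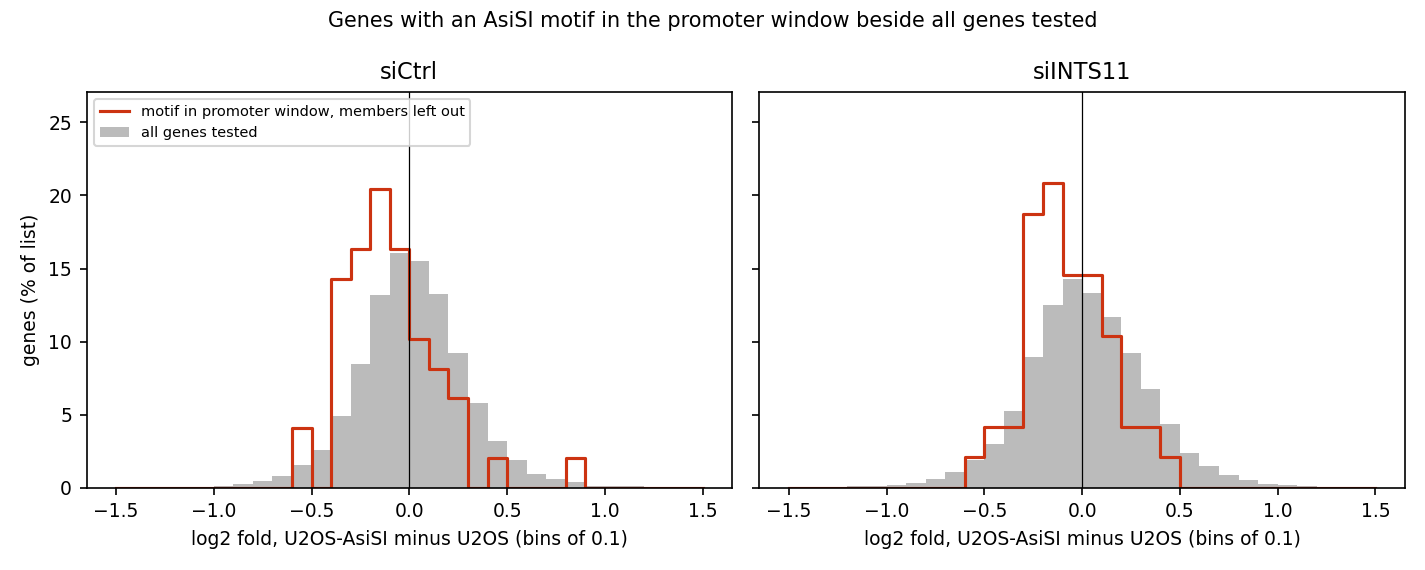
Share of genes (percent of each list) by log2 fold change between the lines (U2OS-AsiSI minus U2OS, bins of 0.1) under siCtrl and siINTS11, for genes with an AsiSI motif in the promoter window without the named genes (line) and all genes tested (grey bars). The outline of the motif genes is shifted to values below 0 under both siRNAs, with 36.7% and 43.8% of them called lower.

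Factors tied to silencing of genes next to breaks were described from a list of 24 genes, of which 23 were tested. Under siCtrl 9 were lower and 1 was higher in U2OS-AsiSI (median -0.07), and under siINTS11 11 were lower and 4 higher (median -0.09). As shares of the list, 39.1% were lower and 4.35% higher under siCtrl, beside 17.2% and 17.8% of all genes tested, and 47.8% and 17.4% under siINTS11, beside 21.4% and 22.2%. With the span offset 6 of the 23 were lower under each siRNA, beside 2772 of 19935 genes under siCtrl and 3623 of 20802 under siINTS11. RNF8, the ubiquitin ligase that marks chromatin at breaks, had -0.51 (SE 0.05, adjusted p = 3.79e-10 in edgeR) under siCtrl and -0.31 (SE 0.05, adjusted p = 1.31e-06) under siINTS11. ZMYND8, a chromatin reader, had -0.23 and -0.33 (SE 0.04 each, edgeR adjusted p = 3.76e-05 and 1.55e-08), and STAG2, a cohesin subunit, -0.24 and -0.31 (SE 0.04 each, adjusted p = 4.19e-05 and 1.85e-07). After siINTS11, 11 of the 23 were lower (47.8%) and 3 higher (13%) in U2OS-AsiSI, beside 32.6% and 35.4% of all genes tested. In U2OS 13 were lower (56.5%) and 1 was higher (4.35%), beside 32.4% and 34.5%. ARID2 and EHMT1 fell in both lines, by 0.52 and 0.45 in U2OS-AsiSI and by 0.45 each in U2OS on the log2 scale (edgeR adjusted p at most 8e-10). PBRM1 fell by 0.32 in U2OS-AsiSI (adjusted p = 2.37e-07 in edgeR).

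Over the 12 libraries, which share 4 group means, the genes most like each of the 6 in log2 CPM were found among about 13550 genes that averaged 100 or more counts. KYAT3 was most like GAB1 and LIN54 (Pearson's r 0.99 each), and TRIM37 most like TRERF1 and DLGAP5 (0.99 each). ASXL1 was most like CHKA and CUL4B (0.97 each) and KDELR3 most like GTF2IP6 (0.94) and NBR1 (0.93). LYRM2 and MIS12 had RASSF4 in common (0.89 and 0.87), after CPM, a carboxypeptidase gene, for LYRM2 and AL132780.3 for MIS12 (0.91 each). These are values of likeness over group differences in 4 groups and carry no test.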

How the data were processed

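The deposited values are unnormalized counts for each gene over its whole span, introns included, laid out as featureCounts writes them, per the file headers. The authors used Trimmomatic 0.36, STAR 2.7, featureCounts and build hg38, per the submitters' processing notes. The strand setting and the rule for overlapping genes are not given in the sources used here. Of 55454 symbols also in GENCODE 29, 75.1% had the same coordinates. Library totals were 20704611 to 38065726, and replicates differed by more than sampling noise (chi-square per degree of freedom 1.93 to 3.28).

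The 7 genes and the other lists were chosen with earlier results of these data known. R 4.3.3 and edgeR 4.0.16 were used for all tests of counts (filterByExpr, trimmed mean of M-values or TMM scaling, robust glmQLFit and glmQLFTest, two-sided, on the groups compared), with Benjamini-Hochberg adjustment over all genes tested and a threshold of 0.05. SEs are the log2 fold change over the root of F. CPM values are scaled by TMM over all 12 libraries. In simulated counts with known changes, 91.2% and 91.8% of 2-fold genes were recovered in the line comparisons (3.4% and 4.1% of calls false) and 70.8% in the interaction (2.5% false). Of 1.5-fold genes, 79.4% and 78.9% were recovered in the line comparisons and 44.6% in the interaction. The differences of the 6 genes tested were all below 2-fold. Each simulated gene had the same dispersion, so these shares need not hold for the real counts.

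Named beside the 7 genes were partners on the opposite strand within 1 kb, the 2 most similar genes each (highest Pearson's r, mean count of at least 100), called genes within 50 kb (at most 2 per gene by smallest adjusted p, to which DHX33 was added after its values were seen), 3 genes each way with a motif in the promoter window, up to 3 silencing genes per comparison (1 result is not reported here), and INTS11 and ESR1. Alternatives were median-of-ratios factors, library totals alone, no filter, a filter at an average of 50 counts, DESeq2 1.42.0, the replicate block, all libraries in 1 fit, span and density offsets, other windows and each library left out. Genes that start within 1 kb of any motif were an alternative chosen after seeing the data. Figures were drawn with matplotlib 3.10.9.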

Additional observations from a re-analysis of the deposited data

Results flagged for a closer look

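MIS12 stood out because its difference between the lines differed between the siRNAs by a test of that difference itself, an interaction of 0.42 on the log2 scale (SE 0.11, edgeR adjusted p 0.0223). Under siCtrl all 3 U2OS-AsiSI libraries (9.93 to 12.4 CPM) lay below all 3 U2OS libraries (15 to 16.2 CPM). Under siINTS11 the ranges were 12.4 to 13.1 CPM and 13.1 to 13.6 CPM. DERL2, which overlaps MIS12 on the opposite strand, had -0.29 and -0.27 between the lines under siCtrl and siINTS11. Over alternatives the MIS12 interaction ran from 0.36 to 0.51 with adjusted p from 0.00244 to 0.0785. Whether reads of the overlapping DERL2 bear on this value was not tested.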

How the results depend on the processing

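For the line difference under siCtrl, KYAT3, ASXL1, TRIM37, MIS12 and KDELR3 passed in all 15 alternatives and LYRM2 in 13, so the count of lower genes was 5 to 6 of 6. Over all 19935 genes, 2376 (library totals) to 3827 (density offset) were lower across the scalings. Under siINTS11 the count was 3 to 4 when a library was left out, 3 with DESeq2, the density offset or library totals, and 5 with the span offset, where MIS12 was gained (-0.25). Over all 20802 genes, 4706 were lower with the density offset, 3344 with library totals and 3623 with the span offset. Calls either way numbered 7092 with DESeq2 and 7341 to 9122 with a library left out. Reversed under siINTS11 were LYRM2 with the span offset (0.01) and MIS12 with library totals alone (0.01). Correlations of the deviations of same-numbered libraries were small (-0.11 to 0.14), which does not settle whether these libraries were paired. The replicate block kept the count of 6 lower genes under siCtrl while it moved the interaction calls over all genes from 832 to 531. Those calls were 423 with DESeq2, 463 with the density offset, 447 with median-of-ratios factors, and 286 (without U2OS siINTS11 replicate 3) to 946 when a library was left out. Of the 6 genes, 2 passed the interaction with the density offset, library totals alone, median-of-ratios factors or no filter, 3 with the span offset or a mean count of at least 50, and 0 to 2 when a library was left out. The interaction of KYAT3 turned to 0.01 with DESeq2, library totals or median-of-ratios factors, 0.04 with the density offset, 0.02 with the span offset, 0.05 with a mean count of at least 50 and 0.03 with no filter, and that of TRIM37 to 0.02, 0.01, 0.02, 0.04, 0.05, 0.06 and 0.04 (DESeq2, library totals, median-of-ratios, density, span, mean count, no filter). With a library left out they ran from -0.05 to 0.03 and from -0.04 to 0.02. None of these values passed.

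In U2OS-AsiSI, genes higher after siINTS11 numbered 0 with DESeq2, 2 with the span offset or a mean count of at least 50, 3 with library totals and 0 to 1 with a library left out (0 without siCtrl replicate 2 or siINTS11 replicate 2), and genes lower 1 with the span offset or library totals. Of all 20441 genes, 6427 were higher and 6929 lower with the span offset, and 10550 and 4024 with library totals. In U2OS-AsiSI TRIM37 turned to 0.01 with the span offset and with library totals, MIS12 to -0.06 with the span offset, and KDELR3 to 0.04 (density), 0.17 (library totals), 0.03 (mean count) and -0.06 to 0.03 (a library left out). In U2OS, 3 of the 6 genes were lower with the span offset, beside 7079 of all 20687 genes. With library totals 2 were lower and 1 higher, beside 3799 and 10968 of all genes. On that scale ASXL1 (0.07, edgeR adjusted p 0.0263) and LYRM2 (0.10) turned. The cause of these changes was not tested.

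Under siCtrl, genes near the 7 numbered 2 lower and 0 higher of 3 tested within 10 kb. Of 44 within 250 kb, 14 (31.8%) were lower and 5 (11.4%) higher, and of 177 within 1 Mb 38 (21.5%) and 24 (13.6%). Over all genes tested 17.2% were lower and 17.8% higher. Under siINTS11 the near genes numbered 2 and 0 of 3, 12 (27.3%) and 9 (20.5%) of 44, and 36 (18.8%) and 45 (23.4%) of 192. The shares over all genes there were 21.4% and 22.2%. For starts within 1 kb of any motif (chosen after seeing the data), 48 of 127 genes tested (37.8%) were lower and 14 (11%) higher under siCtrl. Under siINTS11 it was 47 of 130 (36.2%) and 23 (17.7%). Of genes with a motif in the promoter window, 9 were higher with library totals under siCtrl, beside 4921 of all 19935 genes tested. Under siINTS11, 4 were higher with DESeq2 or all libraries in 1 fit. There 7092 and 8879 of all genes were called either way. Silencing factors under siCtrl numbered 2 higher with library totals and 6 lower with the span offset, beside 4921 and 2772 of 19935 genes. Under siINTS11 they numbered 1 higher with all libraries in 1 fit or the density offset (3810 of 20802 genes with the latter). With a library left out 2 to 4 were higher, and with the span offset 6 were lower (3623 of all genes). KDELR3, LYRM2 and MIS12 had 183 to 530 reads per library, and whether depth limited their calls was not tested.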
